A study of Homo sapiens with 6 samples.

Results

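The genes described here are 9 members of the NF-kB pathway: the subunits NFKB1, NFKB2 and RELB, the inhibitors NFKBIA, TNFAIP3 and TNIP1, the survival gene BIRC3, and the targets TNFAIP2 and ICAM1. They were chosen by name, with earlier results of these data known, and found by Ensembl identifier. Shares over all tested genes are therefore given for description. They are 9 of 58336 genes in the count table, and all 9 were among the 15673 genes that passed the filter on low counts. All 9 were higher in every one of 3 lung-recovered libraries than in both cultured controls, a pattern shown by 20.4% of the genes tested. The size of the difference varied with the library: the median over the members was 4.67-fold in 1 library, 2.31-fold in another and 1.56-fold in the third. With 3 libraries against 2, edgeR's quasi-likelihood test called 0 of 9 members after adjustment. Before adjustment 8 of 9 were higher, against 9.26% of the genes tested, and DESeq2 called 6 of 9 higher, against 4.48%.

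NF-kB is a family of dimeric transcription factors that wait in the cytoplasm, bound by IkB proteins. Inflammatory signals, such as those from the receptors for TNF, interleukin 1 and bacterial products, lead to removal of the IkB protein, and the freed dimer enters the nucleus. Among the genes it turns on are its own inhibitors, so the response is built to shut itself off. In lung and tumour tissue the pathway is known for driving chemokines, adhesion molecules and survival genes.

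The cells were SUM159, a human triple-negative breast cancer line, as 6 RNA-seq libraries from ITGB4-high or ITGB4-low cells (ITGB4 is the integrin beta-4 subunit). The culture libraries were 1 of ITGB4-high cells and 1 each of ITGB4-low clone 1 and clone 3, the controls. The lung libraries were ITGB4-low clone 1 from mice given bleomycin, a lung-injuring drug, through the trachea ("bleomycin clone 1"), and clones 1 and 3 from mice whose lungs also received LM2 cells ("LM2 clone 1" and "LM2 clone 3"). LM2 is a lung-metastatic derivative of MDA-MB-231, another breast cancer line. The labels' treatment text names clone 1 only, and the clone of the LM2 clone 3 library rests on its title and the series' design text. The lung cells had been injected through the tail vein, and tdTomato-positive cells were sorted after lung dissociation and a night in culture. Lung cells without either trigger were not analysed here, so passage through the lung, handling and trigger cannot be told apart. Each lung condition and clone is 1 library, and nothing in the labels gives the number of mice behind it. P-values therefore measure only the spread between these libraries. In bulk RNA, a smaller share of cells with a transcript and less of it in each cell cannot be told apart.

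The libraries held between 13607953 and 22222121 counts, and a floor of 3 counts lay at 0.138 to 0.232 CPM (read counts relative to the library's size, with TMM factors of 0.9468 to 1.032). The members were far above it, with 245 to 27091 counts per library. Floors cover counting error only. ITGB4 stood at 25.9 and 24.6 CPM in the controls, 384 CPM in the ITGB4-high library and 306 to 471 CPM in the lung libraries, so the lung cells labelled ITGB4-low carried ITGB4 at about the ITGB4-high level. The line markers VIM, ZEB1, CD44 and FN1 were present, and PGR, EPCAM and CDH1 had at most 3 counts in every library. Of markers of other lung cells, 6 of 6 lymphocyte genes and the surfactant genes SFTPC, SFTPB and SFTPA1 had at most 3 counts in every library. AGER and NKX2-1 complete the 5 alveolar genes. AGER stood at 2.29 and 1.79 CPM in the controls. In LM2 clone 1, LM2 clone 3 and bleomycin clone 1 it was at 3.8, 2.88 and 3.53 CPM. NKX2-1 fell from 4.09 and 3.91 CPM in the controls to 0, 1.41 and 0 CPM in the same order. The 8 myeloid genes summed to 1.2 to 2.29 CPM in the cultured libraries and to 3.95, 1.41 and 6.73 CPM in LM2 clone 1, LM2 clone 3 and bleomycin clone 1. Of these, CSF1R, FCGR3A and TYROBP had at most 3 counts in every library. PTPRC, the leukocyte gene for CD45, had 3 and 4 counts in the controls, 1 in ITGB4-high, 30 in LM2 clone 1, 42 in bleomycin clone 1 and 4 in LM2 clone 3, and was thus highest in the libraries where the members were highest. CD68 had 6 to 11 counts in 5 libraries and 25 in bleomycin clone 1. LYZ had 13 and 1 counts in the controls of clones 1 and 3, and CD14 had 10 and 8. In LM2 clone 1, LM2 clone 3 and bleomycin clone 1, LYZ had 2, 1 and 7 counts and CD14 4, 7 and 22. Both were thus lower in LM2 clone 1 than in its own control. ITGAM had 0 counts in both controls and 7, 1 and 8 in the lung libraries in that order. Of 5 endothelial genes, CDH5 and CLDN5 had at most 3 counts in every library. PECAM1 stood at 1.8 and 2.02 CPM in the controls and at 2.32, 3.64 and 9.42 CPM in LM2 clone 1, LM2 clone 3 and bleomycin clone 1. KDR went the other way, from 70.8 and 105 CPM in the controls to 0.155, 6.52 and 1.73 CPM in the lung libraries in that order. VWF had 3 and 8 counts in the controls and 1, 2 and 1 in the lung libraries, again in that order. The 6 fibroblast genes, of which the line expresses COL1A1, COL3A1, DCN and PDGFRA in culture, summed to 125 and 161 CPM in the controls, 199.6 CPM in ITGB4-high and 499.9 to 823 CPM in the lung libraries. COL1A1 made up most of the sum in LM2 clone 3, at 712 CPM, and PDGFRA in LM2 clone 1, at 449 CPM. COL1A2 had 0 or 1 count in culture and 51, 9 and 8 in LM2 clone 1, LM2 clone 3 and bleomycin clone 1. In the same order COL3A1 stood at 14.8, 70.6 and 44.4 CPM, with 38.9 and 74.4 in the controls of clones 1 and 3. DCN stood at 14.6, 12.8 and 39.2 CPM, with 16.8 and 21.7 in the controls. LUM had 0 to 4 counts in all 6 libraries. The part of fibroblast, myeloid, endothelial and alveolar genes in the differences below was not tested.

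The promoters of several of these genes are known for binding sites of NF-kB itself, the basis of the feedback. The stretches below show where the 10-base kB consensus lies in the 250 bases before each RefSeq gene start (GRCh38.p14). Capitals mark the match. The consensus was searched on both strands, and overlapping matches were merged. Promoter entries matched 8 of the 9 members by symbol, all but RELB, with 12 windows because some have several starts. Each line gives 30 bases, 5′ to 3′ in the direction of the gene, and distances are counted back from the start.
NFKB1, plus strand, chr4:102501300-102501329, match 49 to 40 bases before the start: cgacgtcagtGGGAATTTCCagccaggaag
NFKB2, plus strand, chr10:102394462-102394491, merged matches 107 to 97 bases before: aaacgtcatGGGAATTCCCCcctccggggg
NFKB2, plus strand, chr10:102394490-102394519, match 78 to 69 bases before: gggccgagaaGGGGCTTTCCcggccctgag
NFKB2, plus strand, another start, chr10:102395519-102395548, match 176 to 167 bases before: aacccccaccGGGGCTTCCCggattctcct
NFKB2, plus strand, the same start, chr10:102395674-102395703, match 21 to 12 bases before: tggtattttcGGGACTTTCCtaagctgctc
NFKBIA, minus strand, chr14:35404811-35404840, match 81 to 72 bases before: tgactggcttGGAAATTCCCcgagcctgac
TNFAIP3, plus strand, chr6:137867188-137867217, matches from 67 to 46 bases before: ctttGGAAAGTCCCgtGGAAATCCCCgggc
TNIP1, minus strand, chr5:151081057-151081086, match 42 to 33 bases before: ccagtctccgGGGACTTTCCcaggggtggg
BIRC3, plus strand, chr11:102317275-102317304, match 199 to 190 bases before: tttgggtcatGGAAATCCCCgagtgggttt
BIRC3, plus strand, chr11:102317339-102317368, match 135 to 126 bases before: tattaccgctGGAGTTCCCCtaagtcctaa

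The consensus was in 6 of the 8 members with an entry and in 7 of their 12 windows. Over all genes it was in 5.21% of 35116 windows and 6.28% of 27305 genes. TNFAIP2 and ICAM1 had no match, which says only that these letters are not in their windows. The looser pattern of 3 G, any 5 bases and 2 C, searched on both strands and holding every match of the consensus, was in 8 of 8 members but also in 57.8% of genes. A match is a run of letters and was not measured as a binding site here. The NFKBIA window is given whole, since it belongs to the classic feedback inhibitor and holds 1 match, in capitals, in the 250 bases at chr14:35404750-35404999 on the minus strand:
NFKBIA: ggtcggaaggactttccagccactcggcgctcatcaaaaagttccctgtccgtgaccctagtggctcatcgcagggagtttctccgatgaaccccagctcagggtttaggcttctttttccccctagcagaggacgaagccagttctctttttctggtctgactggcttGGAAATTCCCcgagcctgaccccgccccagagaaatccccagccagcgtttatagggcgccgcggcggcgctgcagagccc

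The subunits came first. NFKB1 (ENSG00000109320, chr4:102501329-102617302, plus strand, GENCODE 29) encodes p105, the precursor of the DNA-binding subunit p50. It stood at 186 and 189 CPM in the controls of clones 1 and 3, 646 in LM2 clone 1, 263 in LM2 clone 3, 289 in bleomycin clone 1 and 271 in ITGB4-high. The controls lay within a few CPM of each other, the LM2 clone 1 library stood apart, and the other 3 were close together above the controls. NFKB2 (ENSG00000077150, chr10:102394110-102402529, plus strand) encodes p100, which is cut to p52 in the non-canonical branch. Its levels were 35.5 and 39.8 CPM in the controls, 230.1 in LM2 clone 1, 71.4 in LM2 clone 3, 111 in bleomycin clone 1 and 109 in ITGB4-high. RELB (ENSG00000104856, chr19:45001430-45038198, plus strand) encodes the partner of p52. It stood at 17 and 20.1 CPM in the controls, 52.2 in LM2 clone 1, 28.2 in LM2 clone 3, 39.4 in bleomycin clone 1 and 34.3 in ITGB4-high. For each of the 3 subunits all lung libraries were above both controls, as they were for 20.4% of tested genes. NFKB2 had the largest ratios: 6.46-fold over its own clone's control in LM2 clone 1, 1.79-fold in LM2 clone 3 and 3.12-fold in bleomycin clone 1. NFKB1 was 3.47-, 1.39- and 1.55-fold over its own control in the same order, and RELB 3.06-, 1.4- and 2.31-fold.

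Over the 3 lung libraries, NFKB2 averaged 138 ± 82.6 CPM (SD, n = 3) against 37.7 ± 3.02 in the controls (SD, n = 2). The edgeR log2 fold change was 1.87 (SE 0.50), with an adjusted p of 0.144. For RELB the averages were 39.9 ± 12 and 18.6 ± 2.24 CPM (SD, n = 3 and 2), and the edgeR log2 fold change was 1.10 (SE 0.28, adjusted p = 0.132). NFKB1 averaged 399 ± 214 against 188 ± 1.82 CPM (SD, n = 3 and 2), with a log2 fold change of 1.09 (SE 0.42, edgeR adjusted p = 0.225). The SD of NFKB1 among lung libraries exceeded the difference between the means, and LM2 clone 1 was the library farthest from the other lung libraries. Without that library the log2 fold change of NFKB1 was 0.56 and that of NFKB2 1.28. RELA, whose product p65 most often pairs with p50, is not among the 9 and was looked up after their values were known. Its CPM was 65.6 and 67.3 in the controls, 132 in LM2 clone 1, 65.3 in LM2 clone 3, 70.1 in bleomycin clone 1 and 100.1 in ITGB4-high. RELA thus overlapped between lung and control, with a log2 fold change of 0.42 (SE 0.32, edgeR adjusted p = 0.483).

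**Figure D1:**
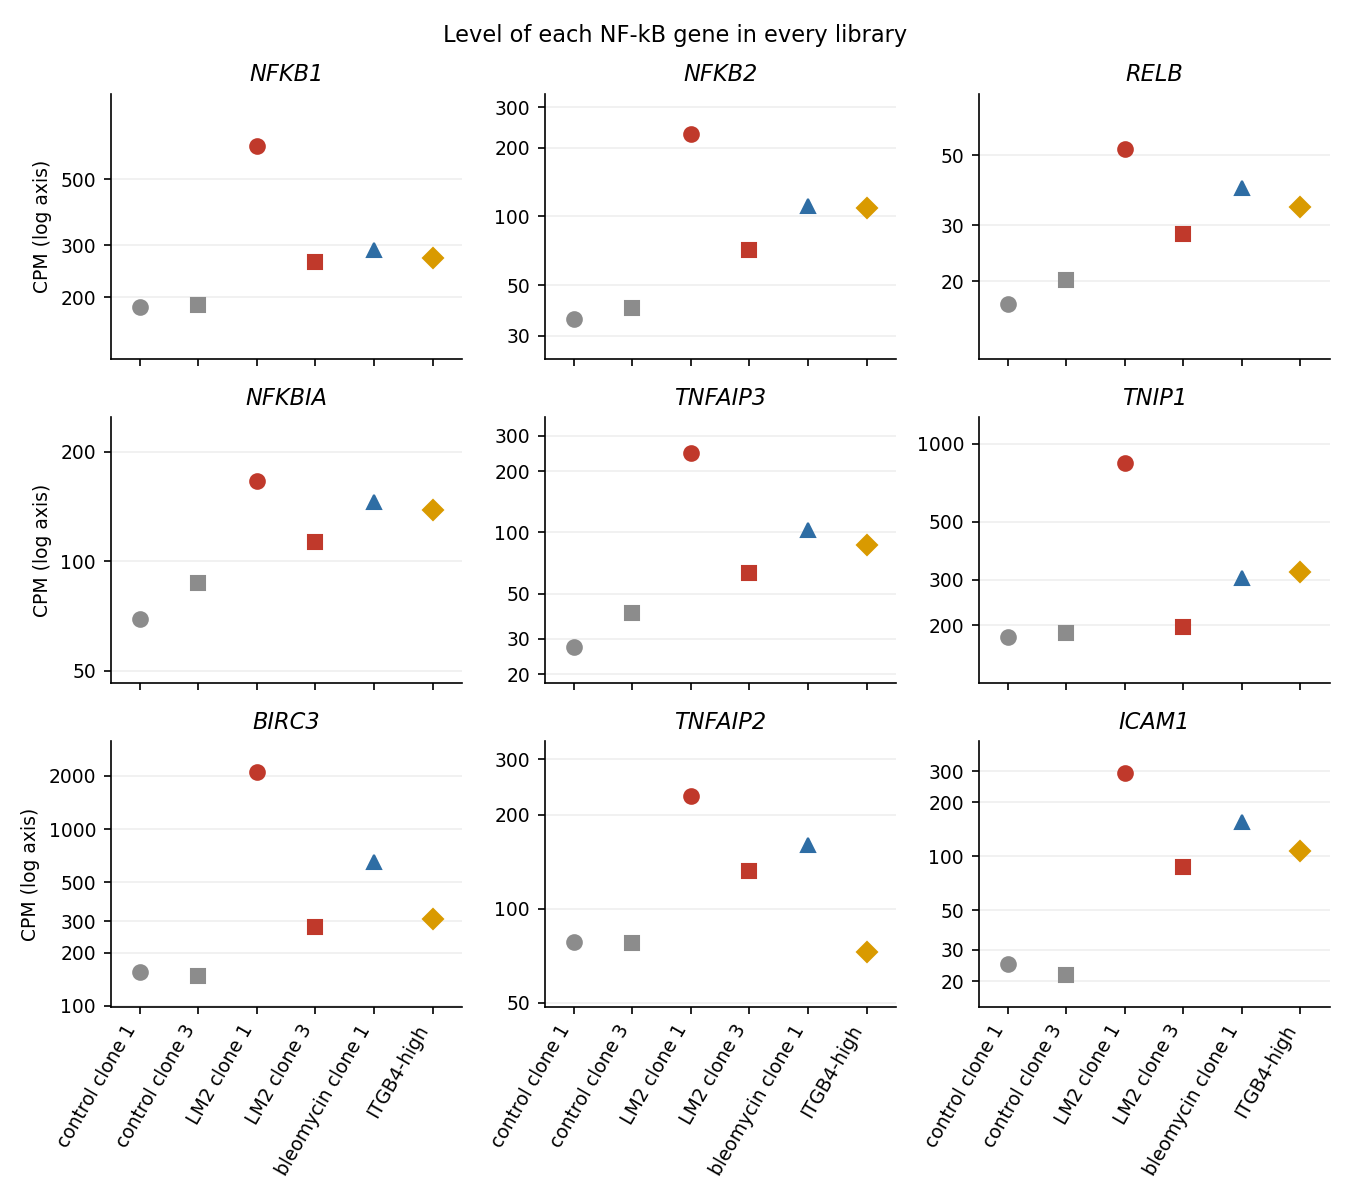
CPM of each of the 9 genes (log axis, range set per panel) in the 6 libraries, 1 point per library with no averaging. Grey points are cultured ITGB4-low controls, red LM2 lung libraries, blue the bleomycin lung library and gold cultured ITGB4-high cells, with squares for clone 3. LM2 clone 1 is the highest point in all 9 panels, and the gold point falls to the level of the controls only for TNFAIP2.

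The inhibitors act at different steps. NFKBIA (ENSG00000100906, chr14:35401511-35404749, minus strand) encodes IkB-alpha, which holds NF-kB in the cytoplasm and is itself a rapid target. It stood at 69.4 and 87.3 CPM in the controls, 166 in LM2 clone 1, 113 in LM2 clone 3, 146 in bleomycin clone 1 and 138 in ITGB4-high. Its range was the narrowest of the 9 genes, 1.25 on the log2 scale, and its 2 controls were below the other 4 libraries. TNFAIP3 (ENSG00000118503, chr6:137867188-137883312, plus strand) encodes A20, a ubiquitin-editing enzyme that stops signalling upstream of the IkB kinases. Its levels were 27.2 and 40.3 CPM in the controls, 246 in LM2 clone 1, 63 in LM2 clone 3, 103 in bleomycin clone 1 and 87.2 in ITGB4-high. TNIP1 (ENSG00000145901, chr5:151029945-151093577, minus strand) encodes ABIN-1, a ubiquitin-binding partner of A20. It stood at 180.0 and 187 CPM in the controls, 842 in LM2 clone 1, 198 in LM2 clone 3, 305 in bleomycin clone 1 and 322 in ITGB4-high. For TNIP1 the LM2 clone 3 library was barely above its own control, at 1.05-fold, while LM2 clone 1 was at 4.67-fold. In the same LM2 clone 3 library TNFAIP3 was at 1.56-fold and NFKBIA at 1.3-fold of control.

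NFKBIA averaged 142 ± 26.4 CPM in the lung libraries and 78.4 ± 12.7 in the controls (SD, n = 3 and 2). Its edgeR log2 fold change was the smallest of the 9, at 0.85 (SE 0.20, adjusted p = 0.12). TNFAIP3 averaged 137 ± 96.5 against 33.7 ± 9.27 CPM (SD, n = 3 and 2), with a log2 fold change of 2.02 (SE 0.61, edgeR adjusted p = 0.167). For TNIP1, at 448 ± 345 against 184 ± 5.19 CPM (SD, n = 3 and 2), the log2 fold change was 1.29 (SE 0.61) and the edgeR adjusted p 0.297. TNIP1 was the member with the weakest test, and it had an unadjusted p of 0.0805. Without LM2 clone 1, the log2 fold change was 1.29 for TNFAIP3 and 0.45 for TNIP1. An antisense gene that overlaps TNFAIP3 had 3 to 13 counts per library, and those that overlap ICAM1 had 0 to 3.

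BIRC3 (ENSG00000023445, chr11:102317450-102339403, plus strand) encodes cIAP2, a ubiquitin ligase that blocks cell death and takes part in TNF receptor signalling. It had the widest range of the 9 genes. Its levels were 156 and 148 CPM in the controls, 2099 in LM2 clone 1, 281 in LM2 clone 3, 649 in bleomycin clone 1 and 310.5 in ITGB4-high. The ratios over the own clone's control were 13.4-fold in LM2 clone 1, 1.89-fold in LM2 clone 3 and 4.16-fold in bleomycin clone 1. The lung average was 1009.8 ± 961 CPM against 152 ± 5.48 in the controls (SD, n = 3 and 2). The edgeR log2 fold change was 2.73 (SE 0.86, adjusted p = 0.174), and 1.61 without LM2 clone 1. BIRC2, which encodes the close relative cIAP1 and lies beside BIRC3 on chromosome 11, stood at 176 and 174 CPM in the controls, 383 in LM2 clone 1, 184 in LM2 clone 3 and 151 with bleomycin in clone 1. In LM2 clone 1, the 660 tested genes of chromosome 11 beyond 28 Mb had a median log2 ratio over control of 0.372, and the 616 tested genes of chromosome 4, which carries NFKB1, a median of 0.289. The chromosomes of the other members had medians of -0.127 to -0.0503 in that library. The part of these regional shifts in the values of BIRC3 and NFKB1 was not tested.

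TNFAIP2 and ICAM1 are targets rather than regulators. ICAM1 (ENSG00000090339, chr19:10270835-10286615, plus strand) encodes an adhesion molecule of the cell surface that leukocytes bind through their integrins. It stood at 24.9 and 21.6 CPM in the controls, 294 in LM2 clone 1, 86.8 in LM2 clone 3, 156 in bleomycin clone 1 and 107 in ITGB4-high. Every library other than the controls was well above both, and the ratios over the own clone's control were 11.8-, 4- and 6.26-fold in LM2 clone 1, LM2 clone 3 and bleomycin clone 1. ICAM1 was the only member at 2-fold or more in all 3 lung libraries, which 1.99% of tested genes were. It averaged 179 ± 105 CPM in the lung libraries and 23.2 ± 2.31 in the controls (SD, n = 3 and 2). Its edgeR log2 fold change of 2.95 (SE 0.54) was the largest of the 9 and had the lowest adjusted p, 0.0782.

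TNFAIP2 (ENSG00000185215, chr14:103123442-103137439, plus strand) encodes a cytoplasmic protein first described as induced by TNF and linked to membrane protrusions. It stood at 78.5 and 77.7 CPM in the controls, 229 in LM2 clone 1, 132 in LM2 clone 3, 159.8 in bleomycin clone 1 and 72.8 in ITGB4-high. The lung libraries were all above the cultured ones, whether these were ITGB4-low or ITGB4-high, and the 3 cultured libraries lay close together. The lung average was 173 ± 49.7 CPM against 78.1 ± 0.578 in the controls (SD, n = 3 and 2), with an edgeR log2 fold change of 1.15 (SE 0.25, adjusted p = 0.1).

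Read per kilobase of exon, which allows genes to be set side by side, the levels also differed in rank between conditions. In control clone 1, TNIP1 (31.1 CPM per kb), NFKB1 (29.8) and NFKBIA (29.2) were the most abundant, and TNFAIP3 (5.38) and RELB (5.59) the least. In LM2 clone 1 the most abundant was BIRC3 at 279 CPM per kb, then TNIP1 at 145 and NFKB1 at 103, with RELB last at 17.2. ICAM1 was at 6.71 CPM per kb in control clone 1 and at 79.3 in LM2 clone 1, there above NFKBIA at 69.8. In ITGB4-high cells the highest were NFKBIA at 58.1 and TNIP1 at 55.6 CPM per kb.

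Each lung library was then set against its own clone's control. In LM2 clone 1, 9 of 9 members were at 2-fold or more, against 8.98% of tested genes, and the median log2 ratio was 2.22, against -0.043 over all genes. In bleomycin clone 1, 7 of 9 were at 2-fold or more (all but NFKB1 and TNIP1), against 7.79% of tested genes, with a median of 1.21 against -0.019. In LM2 clone 3 all 9 were higher than control but 1 of 9, ICAM1, was at 2-fold or more. The background there was 5.65%, so that count alone does not separate the members from other genes. The median in LM2 clone 3 was 0.64, against -0.018 over all genes. The LM2 libraries of the 2 clones therefore differed from each other: LM2 clone 1 was at 2-fold or more of LM2 clone 3 for 6 of 9 members, against 6.27% of genes, and BIRC3 was 7.47-fold, TNIP1 4.26-fold and TNFAIP3 3.91-fold apart. NFKBIA was the closest of the 9, at 1.46-fold. With 1 library of each clone this difference has no replicate check.

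**Figure D2:**
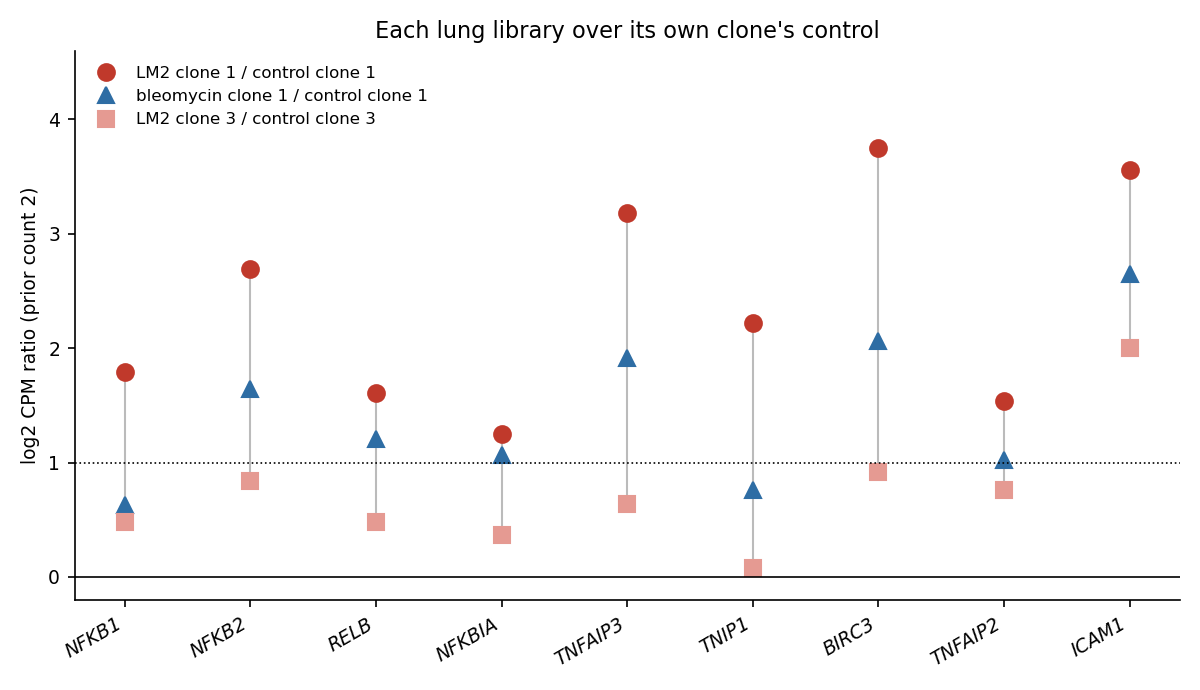
Log2 ratio of CPM (prior count 2) in each lung library over the control of the same clone, for the 9 genes. Solid line, no difference, and dotted line, 2-fold. LM2 clone 1 (circles) runs from 1.25 to 3.75, bleomycin clone 1 (triangles) from 0.63 to 2.65, and LM2 clone 3 (pale squares) from 0.08 to 2.0, in the same order for every gene.

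The order of the libraries was nearly the same from gene to gene. LM2 clone 1 was the highest of the 6 libraries for 9 of 9 members, against 20.7% of tested genes. The run from LM2 clone 1 through bleomycin clone 1 and LM2 clone 3 down to both controls held for 9 of 9, against 7.64% of genes. These orders, and the ones that follow, were read from the members' own values. The shares of genes beside them are therefore description and not a test. Bleomycin clone 1 was above LM2 clone 3 for 9 of 9 (48.9% of genes) and above ITGB4-high for 8 of 9 (50.5%), and ITGB4-high was above LM2 clone 3 for 8 of 9 (49.3%). ITGB4-high lay between bleomycin clone 1 and LM2 clone 3 for 7 of 9. The exceptions were TNIP1, where ITGB4-high (322 CPM) was above bleomycin clone 1 (305), and TNFAIP2, where it was the lowest library. Between bleomycin clone 1 and ITGB4-high the gap was small for NFKB1 (289 and 271 CPM), NFKB2 (111 and 109) and NFKBIA (146 and 138). For NFKB2 and NFKBIA it was smaller than the gap between the gene's controls (35.5 and 39.8 CPM, and 69.4 and 87.3 CPM). Bleomycin clone 1 and ITGB4-high have 1 library each, so whether they differ was not testable from their own spread. The mean of the members' centred log2 CPM was 1.42 in LM2 clone 1, 0.46 in bleomycin clone 1, 0.09 in ITGB4-high, -0.13 in LM2 clone 3, and -0.86 and -0.98 in the controls of clones 3 and 1. Across these 6 libraries, which share clones and a common scaling, each member's Pearson r with the mean of the others lay between 0.824, for TNFAIP2, and 0.987, for TNFAIP3.

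Against the 2 controls, the 3 lung libraries together gave a median log2 fold change of 1.29 over the 9 members (2.44-fold), against 0.0028 over all tested genes. By edgeR's adjusted p, 0 of 9 were called, where 0.498% of tested genes were. At an unadjusted p under 0.05, 8 of 9 were higher (all but TNIP1), against 9.26% of genes. DESeq2, run on the same counts, called 6 of 9 higher, against 4.48% of the genes it gave an adjusted p. These were ICAM1, TNFAIP2, NFKB2, TNFAIP3, NFKBIA and RELB, and for ICAM1 its adjusted p was 9.67e-08. Without LM2 clone 3, edgeR called 6 of 9 members, against 6.55% of genes, and without LM2 clone 1 it called 1, TNFAIP2, against 2.5%.

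The LM2 libraries and the bleomycin library were also fitted as groups of their own, against the same 2 controls. For LM2 the median log2 fold change was 1.5 (2.83-fold). By edgeR 0 of 9 members had an adjusted p under 0.05 (background 0.0319%) and 8 of 9 an unadjusted one (7.29% of genes higher), and DESeq2 called 5 (2.43%). Member adjusted p-values from edgeR ran from 0.204 for ICAM1 to 0.355 for TNIP1. For bleomycin the median was 1.08 (2.12-fold), with 0 of 9 called by edgeR (background 0.0255%), 4 of 9 at an unadjusted p under 0.05 (6.65% of genes higher) and 1 of 9, ICAM1, called by DESeq2 (1.83%). The 4 were NFKBIA, TNFAIP2, RELB and ICAM1. ICAM1 had log2 fold changes of 3.03 (SE 0.62) with LM2 and 2.75 (SE 0.68) with bleomycin, and BIRC3 of 2.97 (SE 0.96) and 2.09 (SE 1.05). Without LM2 clone 1 the LM2 values ran from 0.1 for TNIP1 to 1.91 for ICAM1, with 0.88 for BIRC3. With clone as a block, BIRC3 was at 1.18 for bleomycin. Leaving out LM2 clone 1, edgeR called 7 members for LM2, against 11.6% of genes, and 9 for bleomycin, against 28.1%. Leaving out LM2 clone 3, it called 9 for each, against 40.8% and 27.2%. In those fits only the 2 controls are left to set the spread, and the common coefficient of variation was 0.0846 or 0.0812, in place of 0.244.

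ITGB4-high cells, which were cultured and had not been in a lung, were above both controls for 8 of 9 members, a pattern shown by 43.6% of genes. They were at 2-fold or more of both controls for 3, TNFAIP3, NFKB2 and ICAM1, against 5.98% of genes. The median log2 fold change against the controls was 0.89 (1.85-fold). By edgeR 0 of 9 were called (background 0.0893%), 2 of 9, NFKBIA and ICAM1, had an unadjusted p under 0.05 (10.4% of genes higher), and DESeq2 called 1, ICAM1 (3.45%). ICAM1 differed most, with a log2 fold change of 2.21 (SE 0.68, edgeR adjusted p = 0.149), and TNFAIP2 had a value of -0.10 (SE 0.35, adjusted p = 0.878). Leaving out LM2 clone 1 or LM2 clone 3, edgeR called 8 members in this contrast, against 42% and 41.6% of genes, under the same narrow spread.

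Between lung libraries and ITGB4-high cells, 8 members had log2 differences of 0.04 to 1.70, none of them past the threshold even before adjustment. The edgeR log2 differences were 0.04 (SE 0.25) for NFKBIA, 0.22 (SE 0.34) for RELB, 0.34 (SE 0.60) for NFKB2, 0.48 (SE 0.76) for TNIP1, 0.56 (SE 0.53) for NFKB1, 0.65 (SE 0.74) for TNFAIP3, 0.74 (SE 0.63) for ICAM1 and 1.70 (SE 1.08) for BIRC3. With standard errors of this size, differences of either sign remain possible for these 8 genes. TNFAIP2 differed by 1.25 (SE 0.33), with an unadjusted p of 0.00822 and an edgeR adjusted p of 0.144. ITGB4-high was below every lung library for TNFAIP2 alone, against 30.5% of genes. By edgeR 0 of 9 members were called in this contrast (background 0.108%), 1 of 9 had an unadjusted p under 0.05 (10.4% of genes higher), and DESeq2 called the same 1, TNFAIP2 (5.82%). Without LM2 clone 1, edgeR called TNFAIP2, against 9.1% of genes, and the sign of the difference turned for NFKBIA (-0.09), TNFAIP3 (-0.07), NFKB2 (-0.25), RELB (-0.02) and TNIP1 (-0.35).

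**Figure D3:**
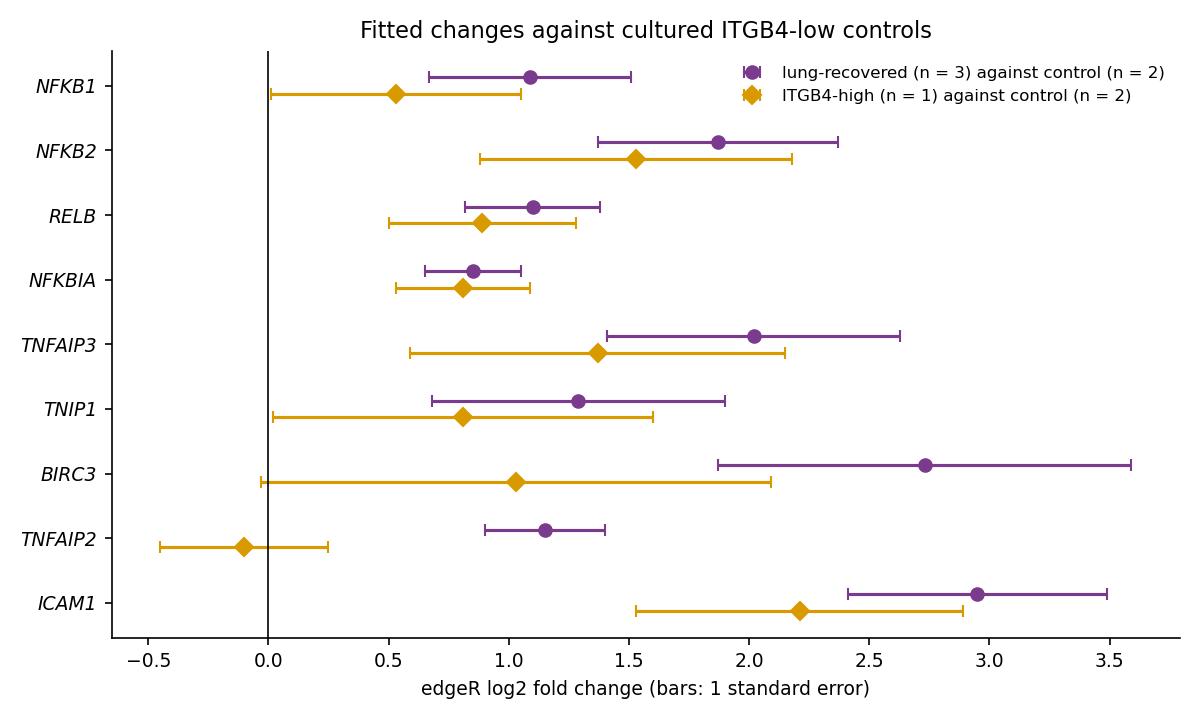
Fitted edgeR log2 fold change of each gene against the 2 cultured ITGB4-low controls, for the 3 lung libraries (purple circles) and the 1 ITGB4-high library (gold diamonds), which share those controls. Bars are 1 standard error. The lung points run from 0.85 (NFKBIA) to 2.95 (ICAM1), and TNFAIP2 is the gene whose gold point lies below 0, at -0.10.

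Other genes of the pathway were counted in lists by role, for the 3 lung libraries against the controls. In the lists of pathway genes edgeR called 0 genes at the adjusted threshold, so the counts below are at an unadjusted p under 0.05, where 9.26% of tested genes were higher and 20.5% differed in either direction. Of 7 other subunits and IkB proteins, 4 were higher and 0 lower, with a median log2 fold change of 0.54. The 4 were NFKBIE (1.5, SE 0.55), an IkB protein, NFKBIZ (1.09, SE 0.41), a nuclear one, BCL3 (0.54, SE 0.16), which works with p50 and p52, and the subunit REL (0.49, SE 0.14), and DESeq2 called 0 of the 7. NFKBIZ was not above control in LM2 clone 3, with 47.4 CPM against 47.9. Of 23 IkB kinases and upstream adaptors, 2 were higher and 3 lower, with a median of 0.00, and DESeq2 called 2 higher and 0 lower. TRAF2 (1.14, SE 0.26) and TRAF3 (0.80, SE 0.20), adaptors that work with cIAP proteins, were the higher ones, and SHARPIN (-0.61, SE 0.22), of the linear ubiquitin ligase complex, was among the lower. IKBKE, a kinase related to the IkB kinases, had a value of 1.08 (SE 0.66) and an edgeR adjusted p of 0.39.

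Of 14 other feedback regulators, 4 were higher and 1 lower (median 0.40), and DESeq2 called 2 and 1. ZC3H12A, which encodes the ribonuclease Regnase-1, had a log2 fold change of 2.71 (SE 0.76), TNIP3, a relative of TNIP1, 2.56 (SE 0.90), and TRAF1, a signalling adaptor, 2.22 (SE 0.84). RNF11, a partner of A20, was at -0.70 (SE 0.13). ZC3H12A stood at 8.8 and 11.9 CPM in the controls, 118 in LM2 clone 1, 18.7 in LM2 clone 3, 66.5 in bleomycin clone 1 and 49.3 in ITGB4-high, the full order seen for 5 of the 9 members (and for 7 with the 2 controls in either order). Of 21 tested receptors (of 22), 6 were higher and 3 lower (median 0.42), and DESeq2 called 3 and 3. They included TLR2 (3.08, SE 0.95), a receptor for bacterial lipoproteins, TNFRSF9 (2.62, SE 0.99), and, on the lower side, TNFRSF11A (-1.41, SE 0.37), which encodes RANK, and IL17RC (-0.98, SE 0.21). Of 16 ligands, 7 passed the low-count filter, and TNF itself had 0 to 2 counts in every library. Of the 7, 3 were higher and 0 lower (median 0.51), and DESeq2 called the same numbers. IL1A stood at 9.14 and 7.68 CPM in the controls, 971 in LM2 clone 1, 62.2 in LM2 clone 3, 63.7 in bleomycin clone 1 and 282 in ITGB4-high. IL1B stood at 0.623 and 1.2 CPM in the controls, 144 in LM2 clone 1, 4.16 in LM2 clone 3, 13.5 in bleomycin clone 1 and 29.2 in ITGB4-high. IL18 (0.51, SE 0.32) and HMGB1 (-0.02, SE 0.12) did not pass unadjusted.

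Of 23 tested inflammatory targets (of 28), 15 were higher and 1 lower, with a median of 2.62, and DESeq2 called 11 and 1. Of those whose log2 CPM averaged at least 2, the largest values were for CSF3 (6.73, SE 2.22), CCL20 (5.52, SE 1.84), CXCL8 (4.76, SE 1.57) and VCAM1 (4.69, SE 0.99), a growth factor for neutrophils, a pair of chemokines and an adhesion molecule. In LM2 clone 3 the 23 tested targets had a median log2 ratio of 0.38 over control, against 3.56 in LM2 clone 1 and 2.55 in bleomycin clone 1. CSF3 was at 0.32 CPM in LM2 clone 3, against 0.414 CPM in its own control. CCL20 was at 2.17 CPM there, with 2.22 and 1.65 CPM in the controls of clones 1 and 3. Both genes thus overlapped between lung and control. The chemokine CCL5, less abundant and named after its values were seen, had the reverse order between clones, with a log2 ratio of 5.01 for LM2 clone 3 but 2.93 for LM2 clone 1 (fitted over the lung libraries, 5.09, SE 0.86). CXCL8 followed the median in single libraries, with 10.9 and 19.4 CPM in the controls of clones 1 and 3, 1058 in LM2 clone 1, 34.5 in LM2 clone 3 and 143 with bleomycin in clone 1. Genes known to respond to tissue dissociation or to glucocorticoids were counted too. The 20 dissociation and immediate early genes had a median of -0.03 (3 higher, 0 lower), and 10 glucocorticoid-induced genes a median of 0.08 (1 higher, 0 lower). The growth protocol gives hydrocortisone in the medium of lung-harvested cells. In LM2 clone 1, bleomycin clone 1 and LM2 clone 3 the dissociation genes had median log2 ratios of 0.23, 0.35 and -0.13, and their part in the members' levels was not tested. JUN in that list had a value of 1.27 (SE 0.25), and FOS one of -1.07 (SE 0.64). A lung metastasis signature of MDA-MB-231 derivatives, which holds NF-kB targets such as VCAM1, summed to 1259 and 1525 CPM in the controls, 3394 in LM2 clone 1, 1504 in LM2 clone 3, 1738 in bleomycin clone 1 and 1866 in ITGB4-high. Its median log2 fold change was 1.96 over 18 tested genes (11 higher, 2 lower), and 1 gene, ID1, passed the edgeR adjusted threshold (2.74, SE 0.27, adjusted p = 0.0274). The sum was highest in the library where the members were highest. EREG made up most of it there, at 1962 CPM, with 91.1 and 90.1 CPM in the controls and 887 in ITGB4-high. The 2 lower genes, MMP2 and MAN1A1, stood at 301 and 42.4 CPM in control clone 1 and at 49.2 and 16.8 CPM in LM2 clone 1. The part of LM2 cells in the members' levels was not tested.

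**Figure D4:**
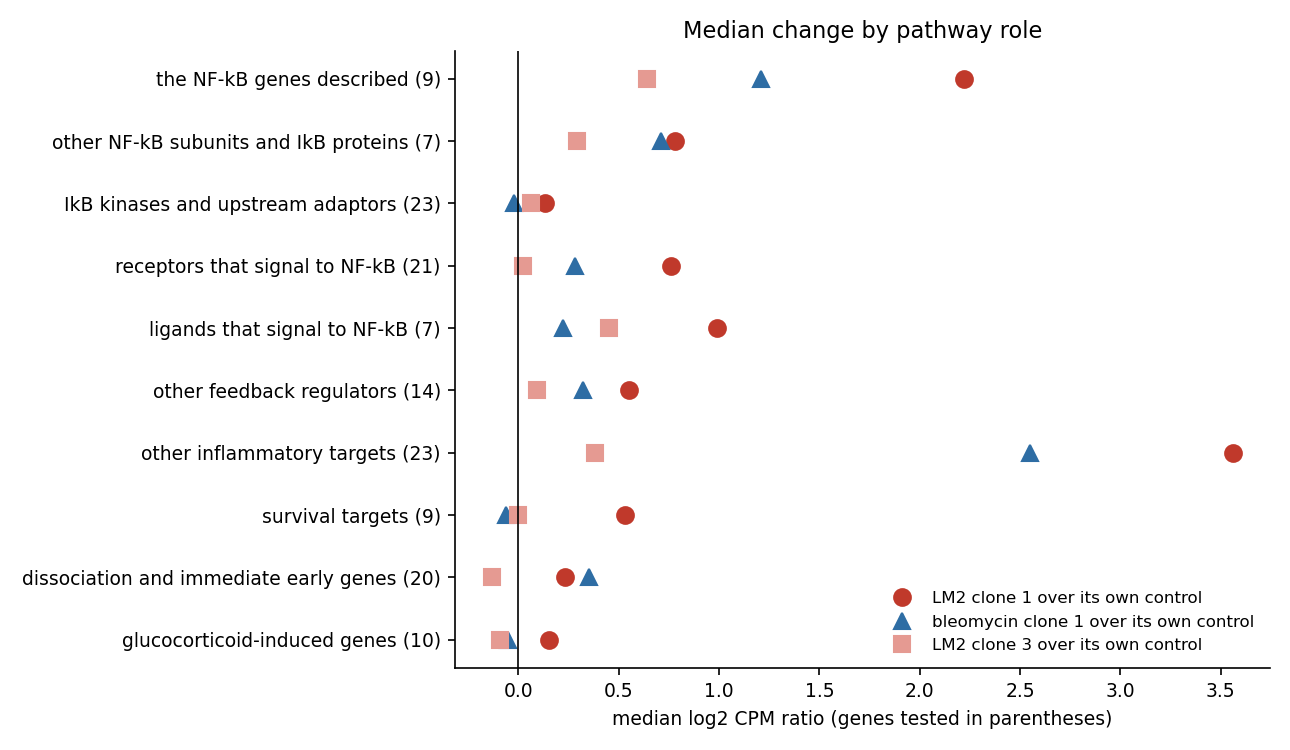
Median log2 CPM ratio of each lung library over the control of the same clone, for the 9 genes described and for 9 lists of other genes by role, with the number of genes tested in parentheses. Circles are LM2 clone 1, triangles bleomycin clone 1 and pale squares LM2 clone 3. The inflammatory targets reach 3.56 and 2.55 in clone 1 with either trigger but 0.38 in LM2 clone 3, while IkB kinases and adaptors lie between -0.02 and 0.13.

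The genes whose pattern was most like that of the members were found by Pearson r with the members' mean centred log2 CPM over the 6 libraries, among 493 tested genes with enough level and spread. They were the chemokine gene CXCL3 (r = 0.991), SERPINB5 (0.9863), which encodes maspin, the lymphatic growth factor gene VEGFC (0.9837), TNIP3 (0.9829), the EGF receptor ligand gene AREG (0.9824) and CXCL8 (0.9809). CXCL3 stood at 2.29 and 3.26 CPM in the controls, 169.9 in LM2 clone 1, 13.3 in LM2 clone 3, 20.8 in bleomycin clone 1 and 13.4 in ITGB4-high. AREG stood at 13 and 10.1 CPM in the controls, 470.3 in LM2 clone 1, 31.8 in LM2 clone 3, 58.1 in bleomycin clone 1 and 46.8 in ITGB4-high. The likeness is over 6 libraries that share clones, and LM2 clone 1 is the highest point in each.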

How the data were processed

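Per the labels' protocols, the libraries are strand-marked and start from oligo-dT captured RNA. The submitters' processing notes name STAR 2.7.1a and hg38. The read counter, its annotation and its use of strand are not given in these sources. The values deposited by the authors are raw counts per gene, 1 column per library. Of 58336 identifiers, 58216 matched GENCODE 29 and 120 did not. Gene positions and exon lengths are from that annotation.

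Genes were filtered with filterByExpr (minimum count 10) and tested with edgeR 4.0.16 (R 4.3.3) quasi-likelihood on all 6 libraries, with TMM factors and Benjamini-Hochberg adjustment over 15673 genes (threshold 0.05). A fit of 3 classes (lung, control, ITGB4-high; 3 residual degrees of freedom) served the lung-recovered contrasts, and a fit of 4 groups (2 degrees of freedom) the others. ITGB4-high and bleomycin are 1 library each and take their spread from the other groups. DESeq2 1.42.0 was an alternative. SE is the log2 fold change over the square root of F. Log2 CPM used a prior count of 2. Scripts were tested on simulated data.

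The members and lists were chosen with earlier results of these data known. All 9 members are named. Up to 4 genes per list are named, those called first and then by size of change among genes with a mean log2 CPM of 2 or more, and the 6 genes most like the members by r. RELA, TNF, CCL5, EREG, MMP2, MAN1A1 and the single cell-type markers are named outside this rule. VCAM1, TNFRSF9 and BIRC2 are each in more than 1 list. Clone numbers in the titles pair libraries. The deviations of clone 3 from clone 1 in the controls and with LM2 had a correlation of 0.00115 over 15673 genes. The control pair and the LM2 pair differed beyond sampling noise (chi-square per degree of freedom 8.67 and 80.1), so neither pair was a duplicate. The bleomycin and ITGB4-high libraries were not part of that check.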

Additional observations from a re-analysis of the deposited data

How the results depend on the processing

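The number of members called depended on the tool and the libraries kept. Without the low-count filter, edgeR called 3 members for lung against control, 1 for lung against ITGB4-high, 4 for LM2, 3 for bleomycin and 2 for ITGB4-high against control. DESeq2 called 6, 1, 5, 1 and 1 in that order. Leaving out 1 library at a time, the counts ran from 0 to 6, 0 to 1, 0 to 9, 0 to 9 and 0 to 8, and the median log2 fold changes from 0.90 to 1.65, -0.02 to 0.86, 0.76 to 2.21, 1.06 to 1.21 and 0.78 to 0.99. Without either control, 0 members were called. With clone as a replicate block, 0 members were called in every contrast, and the block changed no member's call. The median for bleomycin was then 0.90 in place of 1.08. Without LM2 clone 1, the difference between lung and ITGB4-high turned sign for NFKBIA (-0.09), TNFAIP3 (-0.07), NFKB2 (-0.25), RELB (-0.02) and TNIP1 (-0.35), and without LM2 clone 3 the same genes were at 0.2, 1.02, 0.67, 0.44 and 0.86.

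Over all genes, edgeR called 78, 17, 5, 4 and 14 in the order above. Without the filter the counts were 2152, 1406, 1748, 1430 and 2707 of 33274 genes. With DESeq2 they were 1278, 1086, 647, 580 and 1517, and with the block 39, 0, 36, 8 and 363. DESeq2's size factors used in edgeR gave 14 for LM2 and 74 for ITGB4-high, and leaving ITGB4-high out gave 15 for LM2. Without bleomycin clone 1, 4 genes were called for lung against control and 0 against ITGB4-high. Without either control 0 genes were called in all 5 contrasts. Without LM2 clone 1 the counts were 393, 1432, 1826, 4424 and 6611, and without LM2 clone 3 they were 1012, 37, 6303, 4202 and 6422. The cause of these differences was not tested. The members had at least 245 counts in every library.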

Other observations

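Survival genes other than BIRC3, and adhesion genes of the immunoglobulin family other than ICAM1, differed in both directions. Of 9 survival genes, 3 were higher and 2 lower in the lung libraries against the controls at an unadjusted edgeR p under 0.05. Over all tested genes 9.26% were higher and 20.5% differed in either direction. The median log2 fold change of the survival genes was 0.31. IER3, an early response gene, stood at 39.5 and 54.7 CPM in the controls of clones 1 and 3, 228 in LM2 clone 1, 81.8 in LM2 clone 3, 146 in bleomycin clone 1 and 110.1 in ITGB4-high. MCL1, an anti-apoptotic relative of BCL2, stood at 661 and 759 CPM in the controls and 1468, 759 and 1362 in the 3 lung libraries in the same order, so LM2 clone 3 equalled its own control. GADD45B, a stress gene, was lower, with a log2 fold change of -0.61 (SE 0.14, edgeR adjusted p = 0.108).

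Of 10 tested adhesion genes, 3 were higher and 2 lower by the same rule, with a median of 0.79. The shares over all genes were again 9.26% higher and 20.5% in either direction. VCAM1, like ICAM1 a docking molecule for leukocytes, stood at 2.42 and 2.48 CPM in the controls, 84.5 in LM2 clone 1, 11.8 in LM2 clone 3 and 95 with bleomycin in clone 1. In ITGB4-high cells it was at 0.438 CPM, below both controls, where ICAM1 was at 107 CPM. ALCAM was lower in the lung libraries (-0.97, SE 0.30, edgeR adjusted p = 0.17), and NCAM1 stood at 125 and 127 CPM in the controls and 2.7 CPM in ITGB4-high cells.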
